A study of Mus musculus with 6 samples.

Results

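The genes described here are the 44 genes of fatty acid uptake and oxidation that were written down by name, from the proteins that carry a fatty acid into the cell to the enzymes that break it down, and they are 44 of 29374 genes with any read in the series. They were set apart by where they act, with 11 genes of uptake and activation, 24 genes of the mitochondrial steps, 5 genes of the peroxisomal steps and 4 transcriptional regulators. The RNA came from CD11b+Gr1+ cells purified by flow cytometry from the spleens of tumor-bearing Mll-AF9 mice, in 3 Rpl22+/+ and 3 Rpl22-/- libraries. All the animals carried the Mll-AF9 knockin, a fusion gene expressed from the Mll locus that drives acute myeloid leukemia, and the study's mice were on a C57BL/6 background. The groups are set apart in the labels by the genotype of Rpl22, a protein of the large ribosomal subunit, on the same leukemic allele, and the labels give no group of untransformed cells. No treatment or time point is given in the labels. The study describes its mice as young adults, and the age at which the leukemic animals of these libraries were taken is not given in the sources used here. The study names 1 mouse per genotype as the source of the explants, and it is not stated that libraries of a genotype are from separate animals, so p-values measure only the spread between these libraries, which may be technical, and genotype and animal cannot be told apart.

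Long-chain fatty acids enter cells with the help of surface and transport proteins and are trapped inside by esterification to coenzyme A. Carnitine palmitoyltransferases then pass the acyl chain into the mitochondrial matrix, where repeated cycles of dehydrogenation, hydration, a further dehydrogenation and thiolysis shorten it and release acetyl-CoA. The first dehydrogenation hands its electrons to the electron transfer flavoprotein, and from there to the respiratory chain. Very long, branched and some dicarboxylic chains are first shortened in peroxisomes. In hematopoietic stem cells and in some leukemias fatty acid oxidation is known to support self-renewal, and PPARδ (Ppard) is a nuclear receptor known to drive it.

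The differences between the genotypes that passed the test were in a few genes of transport, the carnitine shuttle, long-chain dehydrogenation, double-bond handling, electron transfer and the peroxisome. Of the 44 genes 41 had enough reads to be tested, and 9 of them, or 22.0%, passed an adjusted p-value of 0.05 (edgeR quasi-likelihood test, Benjamini-Hochberg adjustment over all 16656 genes tested), 6 higher and 3 lower in Rpl22-/-. Among all genes tested 27.6% passed, 13.7% higher and 13.8% lower, so with all 6 libraries the share among the fatty acid genes was no larger than the background. A gene that did not pass is not shown to be equal in the genotypes, and the 95% intervals of the log2 difference reached 1.18 for Acad10 and -1.17 for Fabp5. Higher in Rpl22-/- were Slc27a1, Acadl, Decr1, Etfa, Etfb and Hsdl2, and lower were Slc27a2, Slc27a4 and Cpt1c. Of the 41 genes 6 passed with a difference over 2-fold, 3 in each direction, against 17.5% of all genes tested, 8.93% higher and 8.54% lower. The median log2 difference over the 41 genes was -0.01, against 0.07 over all genes. The CPM ranges of the genotypes did not overlap for 19 of the 41 genes, against 46.1% of all genes, and 10 of those 19 did not pass the test.

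**Figure D1:**
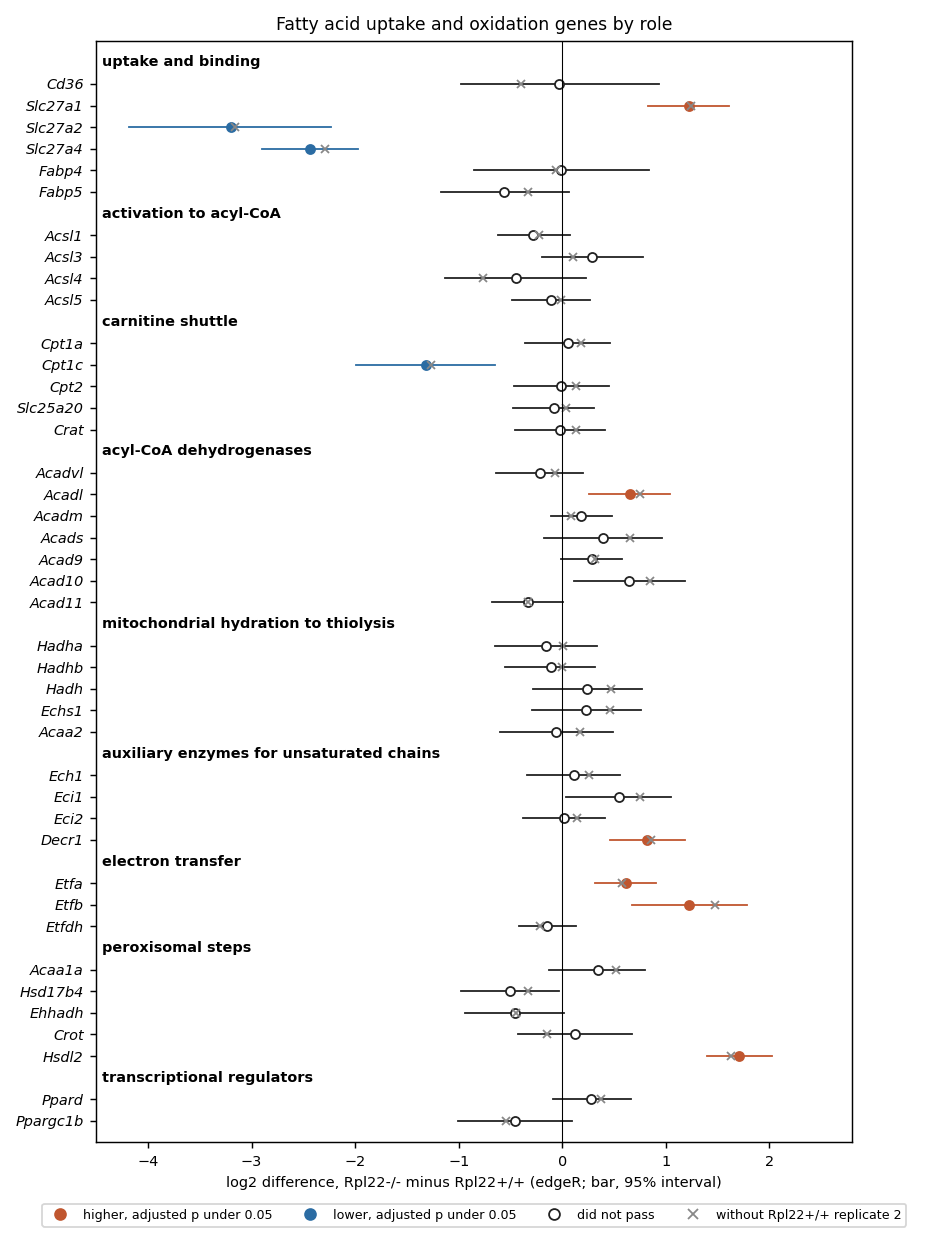
Log2 difference of each tested gene between genotypes (x axis, Rpl22-/- minus Rpl22+/+), by role. Circles are edgeR estimates over 3 against 3 libraries with 95% intervals, filled where the adjusted p-value is under 0.05, and crosses are the same estimates without Rpl22+/+ replicate 2. The median of the 41 genes is -0.01, while Slc27a4 and Slc27a2 lie far to the left and Hsdl2, Slc27a1 and Etfb to the right.

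The 6 libraries held between 35828500 and 102866127 estimated reads. Rpl22+/+ replicate 2 stood apart from its group: across genes its log2 CPM correlated with the other Rpl22+/+ libraries at 0.949 and 0.955, while those correlated with each other at 0.991; these are correlations across genes, which are not independent replicates. Leaving this library out raised the count of fatty acid genes that passed to 18 of 41, or 43.9%, against 40.0% of all genes. Leaving out Rpl22+/+ replicate 3 lowered the count to 5, or 12.2%, and that of all genes from 4594 to 2622. Rpl22 was lower in every Rpl22-/- library, at 58.3, 89.9 and 73.5 CPM against 148, 235 and 152 CPM (log2 difference -1.27 ± 0.25, SE; adjusted p = 0.0106, edgeR). Reads of the gene thus remained in Rpl22-/-, where its mean was 2.41-fold lower. CPM are counts scaled to a common total on composition-corrected library sizes. The sorted cells carried the myeloid genes of their gate in both genotypes, although Itgam, which encodes CD11b, and Ly6g, an antigen of the Gr1 gate, were lower in Rpl22-/- (log2 differences -1.02 and -3.49), and Mpo and Elane, genes of immature granulocytes, were higher (2.99 and 3.48). Ly6c2 and Ly6c1, which encode the Ly6C antigens that Gr1 antibodies also bind, had log2 differences of 0.51 and 0.40 with overlap and did not pass. Of the 10 myeloid genes 4 passed as lower and 2, Mpo and Elane, as higher. Itgb2 and Lyz2 were also lower (log2 differences -1.44 and -1.28). The 10 genes summed to 14936 to 21818 CPM in Rpl22+/+ and 23745 to 29134 CPM in Rpl22-/-. Mpo and Elane carried the higher sum, with means of 1333 and 694 CPM in Rpl22+/+ and 10594 and 7723 CPM in Rpl22-/-. The mean of Lyz2 went from 10138 to 4168 CPM. Genes of monocytes and macrophages summed to 988 to 1223 CPM in Rpl22+/+ and 459 to 613 CPM in Rpl22-/-, with 6 of the 12 higher and 3 lower. All 6 T-cell genes were lower, 5 of 7 erythroid genes were higher, and 1 of 6 B-cell genes was lower. The B-cell genes, which lie outside the gate, summed to 579 to 731 CPM in Rpl22+/+ and 365 to 559 CPM in Rpl22-/-, and all 6 estimates were below 0. In bulk RNA, fewer cells of a type and less RNA per cell cannot be told apart, and the part of these shifts in the results below was not tested.

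The promoters of 4 genes whose differences passed the test are shown first, because they can be read beside the differences that follow. They are RefSeq windows of GRCm38.p6, from 250 bases before to 50 bases after the annotated start, printed 5′ to 3′ on the strand of the gene. Capitals mark the GC box GGGCGG and the CCAAT box, each on either strand, and the hexamer AGGTCA, the core letters to which PPAR and RXR receptors bind in pairs.
Hsdl2: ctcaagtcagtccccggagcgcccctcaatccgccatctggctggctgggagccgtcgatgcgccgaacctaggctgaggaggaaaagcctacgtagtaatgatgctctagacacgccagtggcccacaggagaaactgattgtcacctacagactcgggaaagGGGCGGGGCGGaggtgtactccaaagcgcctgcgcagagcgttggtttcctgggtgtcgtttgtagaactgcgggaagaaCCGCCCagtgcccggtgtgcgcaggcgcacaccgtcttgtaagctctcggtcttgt
Slc27a4: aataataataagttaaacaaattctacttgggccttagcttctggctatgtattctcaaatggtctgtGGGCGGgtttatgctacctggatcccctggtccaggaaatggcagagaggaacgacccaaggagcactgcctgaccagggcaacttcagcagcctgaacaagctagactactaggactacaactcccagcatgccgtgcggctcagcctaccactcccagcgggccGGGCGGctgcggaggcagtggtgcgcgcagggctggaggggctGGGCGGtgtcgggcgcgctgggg
Etfa: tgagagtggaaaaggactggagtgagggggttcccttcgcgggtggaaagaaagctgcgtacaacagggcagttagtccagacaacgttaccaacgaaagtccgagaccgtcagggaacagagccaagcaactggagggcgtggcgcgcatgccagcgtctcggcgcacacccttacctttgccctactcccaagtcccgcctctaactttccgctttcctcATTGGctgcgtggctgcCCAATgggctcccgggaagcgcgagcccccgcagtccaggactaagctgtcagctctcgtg
Etfb: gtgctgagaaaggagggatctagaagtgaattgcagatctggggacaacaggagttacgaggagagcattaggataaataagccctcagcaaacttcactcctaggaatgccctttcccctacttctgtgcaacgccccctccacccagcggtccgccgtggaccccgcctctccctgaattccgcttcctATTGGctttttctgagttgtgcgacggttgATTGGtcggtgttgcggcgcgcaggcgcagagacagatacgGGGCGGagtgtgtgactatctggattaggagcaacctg
The windows lie at chr4:59581313-59581612 (Hsdl2, plus strand), chr2:29802384-29802683 (Slc27a4, plus strand), chr9:55512194-55512493 (Etfa, minus strand) and chr7:43443822-43444121 (Etfb, plus strand). The windows of Hsdl2 and Slc27a4 hold 3 GC boxes each and no CCAAT box, that of Etfa 2 CCAAT boxes and no GC box, and that of Etfb 2 CCAAT boxes and 1 GC box. None of the 4 holds the hexamer.

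Among the genes of uptake and binding the balance of the transporters shifted: Slc27a4 fell 5.42-fold, Slc27a1 rose 2.33-fold, and the weakly expressed Slc27a2 fell as well. Slc27a4 encodes FATP4, a fatty acid transport protein of the endoplasmic reticulum and cell surface with acyl-CoA synthetase activity (chromosome 2, 29692646 to 29707534, GRCm39). Its level was 142, 205 and 144 CPM in the Rpl22+/+ libraries and 28.6, 33.6 and 28.5 CPM in the Rpl22-/- libraries. Every Rpl22-/- library lay far below every Rpl22+/+ library, and the log2 difference was -2.44 ± 0.20 (SE; adjusted p = 0.000372, edgeR). Slc27a1 encodes FATP1, the related transporter of muscle and fat that also activates long chains (chromosome 8, 72021526 to 72039946). It stood at 12.8, 13.8 and 11.4 CPM in Rpl22+/+ and at 34.5, 26.1 and 28.2 CPM in Rpl22-/-. The groups did not overlap, and the log2 difference was 1.22 ± 0.16 (SE; adjusted p = 0.00248, edgeR). Both differences passed in every one of the 18 alternatives tried, with log2 differences of -2.54 to -2.20 for Slc27a4 and 1.07 to 1.36 for Slc27a1.

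Compared per length, Slc27a4 was the more abundant transporter in Rpl22+/+ and Slc27a1 in Rpl22-/-. TPM, which are transcript abundances scaled for length, gave a ratio of Slc27a4 to Slc27a1 of 6.83, 9.05 and 7.85 in the Rpl22+/+ libraries and of 0.543, 0.809 and 0.634 in the Rpl22-/- libraries. Of the summed TPM of the 3 Slc27a genes, Slc27a4 held 88.3% ± 1.47 in Rpl22+/+ and 39.4% ± 4.81 in Rpl22-/- (SD, n = 3 each). The order of the 2 genes was thus the opposite in the genotypes, in each of the 6 libraries.

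Slc27a2, a transporter and very-long-chain synthetase best known from liver and kidney, was close to the limit of detection, with 34, 36 and 25 reads in Rpl22+/+ against 2, 4 and 5 in Rpl22-/-. Per unit depth the reads of Rpl22+/+ were 9.60 times those of Rpl22-/-, with a 95% exact counting interval of 5.13 to 19.9, which covers counting error only. It passed the count test (log2 difference -3.20 ± 0.41, SE; adjusted p = 0.00210, edgeR) but not limma on log2(TPM + 1), where its adjusted p-value was 0.104.

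The remaining genes of this role did not pass. Cd36, a scavenger receptor that takes up fatty acids, had 5.52, 2.02 and 4.61 CPM in Rpl22+/+ and 3.76, 3.01 and 5.14 CPM in Rpl22-/-, so the groups overlapped. Fabp5, a cytosolic fatty acid binding protein of macrophages and skin, had 12.6 to 20.8 CPM in Rpl22+/+ and 8.65 to 13.4 CPM in Rpl22-/- (log2 difference -0.56, adjusted p = 0.165, edgeR), and passed in 2 of 18 alternatives, both with the replicate number as a block. Fabp4, the binding protein of adipocytes and macrophages, stayed between 0.350 and 0.721 CPM in all libraries. Of the 5 adipocyte genes checked beside it, Cidec and Lep had no read in any library and the list summed to at most 0.0678 CPM. The summed level of the 6 genes was 197 ± 39.6 in Rpl22+/+ and 75.0 ± 2.53 in Rpl22-/- on CPM (SD, n = 3), and it followed Slc27a4. On TPM the log2 ratio of the sums was -0.87 in place of -1.40.

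No gene of the activation step, in which acyl-CoA synthetases join the fatty acid to coenzyme A, passed the test. Acsl1, the most abundant of them per length and the main synthetase of fat and muscle, stood at 167, 197 and 161 CPM in Rpl22+/+ and at 158, 143 and 132 CPM in Rpl22-/-. The groups did not overlap, with a gap small beside their spread (log2 difference -0.28 ± 0.14, SE; adjusted p = 0.211, edgeR). Acsl5, a synthetase of the outer mitochondrial membrane, was close to Acsl1 in level, at 42.6 TPM in Rpl22+/+ and 46.0 TPM in Rpl22-/-, and had a log2 difference of -0.11. Acsl3, which feeds lipid droplets, and Acsl4, which prefers arachidonate and is known for its part in ferroptosis, were less abundant, at 2.28 and 6.87 TPM in Rpl22+/+ against 59.1 TPM for Acsl1, and had log2 differences of 0.29 and -0.45. For Acsl4 the Rpl22+/+ libraries disagreed, with 32.5 and 32.6 CPM in replicates 1 and 3 and 15.7 CPM in replicate 2, against 18.1 to 21.0 CPM in Rpl22-/-. Without Rpl22+/+ replicate 2 its log2 difference was -0.77 and passed (adjusted p = 0.00168, edgeR), as did -0.69 with the replicate block and the GC correction (adjusted p = 0.00709). Acsl6, a synthetase of brain and erythroid cells, had 9 reads in all in Rpl22+/+ and 22 in Rpl22-/-, 20 of them in replicate 3, and was not tested.

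The carnitine shuttle, the gate of the mitochondrion for long chains, showed no detectable change in any of its abundant members. Cpt1a, the outer-membrane carnitine palmitoyltransferase that sets the rate of entry and is the target of etomoxir, was the most abundant of them per length (chromosome 19, 3372334 to 3435733). It stood at 205, 293 and 219 CPM in Rpl22+/+ and at 252, 254 and 236 CPM in Rpl22-/-. The Rpl22-/- values lay inside the range of the Rpl22+/+ values, and the log2 difference was 0.05 ± 0.17 (SE; adjusted p = 0.870, edgeR), with a 95% interval of -0.36 to 0.46. The interval excludes a 2-fold difference in either direction. Without Rpl22+/+ replicate 2 the log2 difference of Cpt1a was 0.18. Cpt2, the inner-membrane partner that releases the carnitine again, the carnitine-acylcarnitine carrier Slc25a20 and carnitine acetyltransferase Crat had log2 differences of -0.01, -0.08 and -0.02, and their ranges overlapped.

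Cpt1c, the brain form of the transferase with little catalytic activity of its own, was the exception in this role. It had 64, 79 and 65 reads in Rpl22+/+ against 12, 40 and 43 in Rpl22-/-, or 0.951 ± 0.103 CPM and 0.376 ± 0.0465 CPM (SD, n = 3). The groups did not overlap and the log2 difference was -1.32 ± 0.28 (SE; adjusted p = 0.0148, edgeR), but per length Cpt1a exceeded Cpt1c by 141 to 475 times across the libraries. Leaving out Rpl22+/+ replicate 1 or 3 or Rpl22-/- replicate 1 or 3 ended the call, with adjusted p-values of 0.0509 to 0.0564. The log2 differences in these fits were -1.39 to -1.23. The summed level of the shuttle was 398 ± 81.2 in Rpl22+/+ and 401 ± 18.3 in Rpl22-/- on CPM (SD, n = 3).

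**Figure D2:**
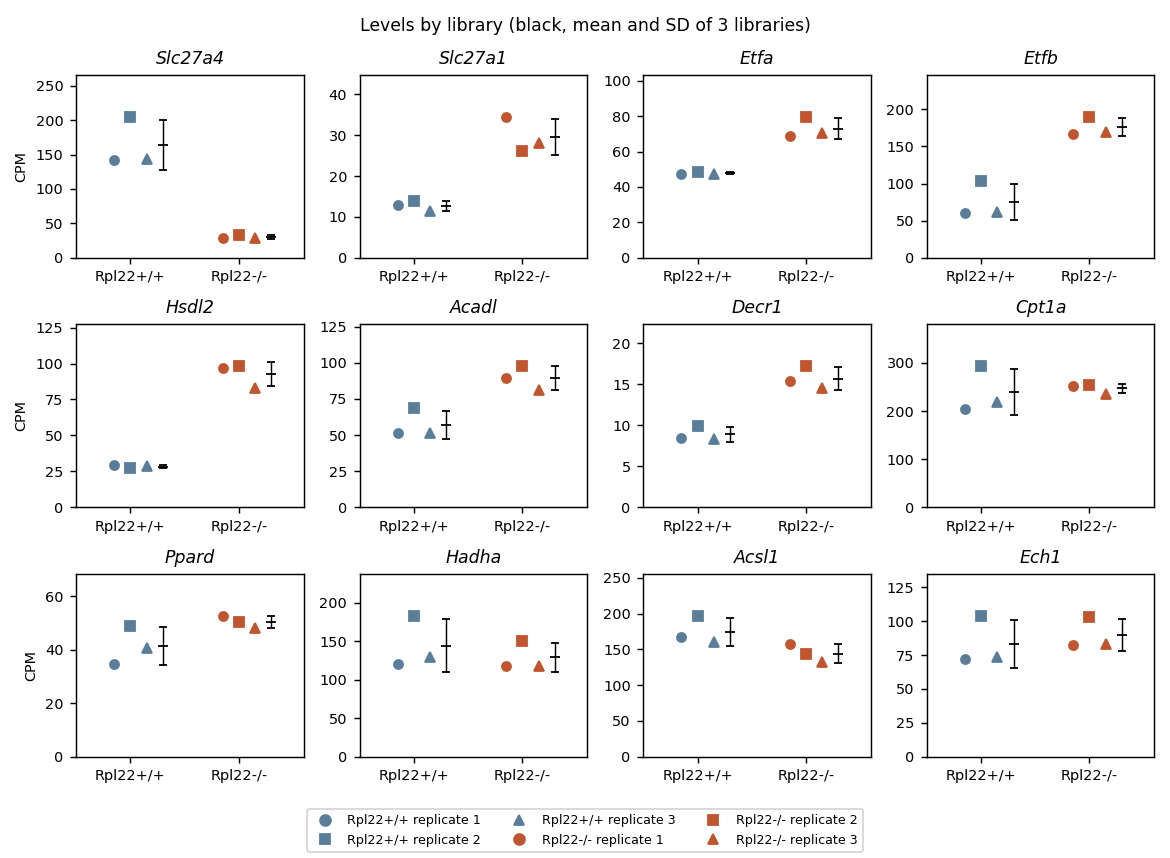
CPM (y axis, from 0) of 12 genes in each library, with the mean and SD of each genotype in black. The groups are clearly separate for Slc27a4, Slc27a1, Etfa, Etfb, Hsdl2, Acadl and Decr1, touch or overlap for Cpt1a, Ppard, Hadha and Ech1, and lie close together for Acsl1.

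Of the 7 acyl-CoA dehydrogenases, which open each turn of the cycle and differ by the chain length they accept, Acadl alone passed the test. Acadl, the long-chain enzyme (chromosome 1, 66869998 to 66902436), was also the most abundant of them per length. It stood at 51.2, 68.4 and 51.7 CPM in Rpl22+/+ and at 89.5, 97.6 and 81.1 CPM in Rpl22-/-. The lowest Rpl22-/- library lay above the highest Rpl22+/+ library, and Acadl rose 1.57-fold (log2 difference 0.65 ± 0.16, SE; adjusted p = 0.0275, edgeR). The call did not hold in 5 of 18 alternatives. Without Rpl22+/+ replicate 1 or 3 or Rpl22-/- replicate 1 or 3 the log2 difference was 0.57 to 0.72. With a correction for GC content the log2 difference was 0.53 and the adjusted p-value 0.222.

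The other dehydrogenases differed less or varied more. Acadvl, the very-long-chain enzyme of the inner membrane, had a log2 difference of -0.22 (adjusted p = 0.421, edgeR), and Acadm, the medium-chain enzyme whose loss is the common human oxidation defect, had 0.18 (adjusted p = 0.328). Acads, the short-chain enzyme, had 30.0, 53.1 and 31.9 CPM in Rpl22+/+ against 46.9, 55.1 and 48.3 CPM in Rpl22-/-. Only Rpl22+/+ replicate 2 reached the Rpl22-/- range, and without it the log2 difference of 0.39 became 0.65 and passed (adjusted p = 0.00823, edgeR). Acad10, which acts on branched substrates, went from 6.19 ± 1.69 CPM to 9.68 ± 0.844 CPM (SD, n = 3) without overlap, a log2 difference of 0.64 ± 0.22 (SE; adjusted p = 0.0757, edgeR) that passed in 9 of 18 alternatives. Acad9, an assembly factor of respiratory complex I as well as a dehydrogenase, had 0.29 (adjusted p = 0.145) and Acad11 had -0.33 (adjusted p = 0.139), and they passed in 2 and 1 of 18 alternatives. Thus 5 of 7 estimates were above 0 and 2 below, with a median of 0.29. Over all genes 9021 of 16656 estimates were above 0, with a median of 0.07.

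None of the 5 genes of the later mitochondrial steps passed. Hadha and Hadhb encode the subunits of the trifunctional protein, which completes the turn for long chains. Hadha, the most abundant gene of this role per length, stood at 120, 183 and 129 CPM in Rpl22+/+ and at 118, 150 and 118 CPM in Rpl22-/-. The ranges overlapped, and the log2 differences were -0.16 ± 0.21 for Hadha and -0.11 ± 0.18 for Hadhb (SE). The 2 subunits kept a near constant ratio, 1.56 ± 0.0647 in Rpl22+/+ and 1.64 ± 0.0963 in Rpl22-/- on TPM (SD, n = 3). For the enzymes of shorter chains, the hydratase Echs1 had a log2 difference of 0.23, the dehydrogenase Hadh 0.24 and the thiolase Acaa2 -0.06. Without Rpl22+/+ replicate 2 the first 2 of these became 0.46 and 0.47 and passed (adjusted p = 0.0297 and 0.0246, edgeR). The summed level of the role was 372 ± 93.5 CPM and 365 ± 46.7 CPM (SD, n = 3).

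Among the auxiliary enzymes, which move or remove double bonds so that unsaturated chains can enter the cycle, Decr1 rose 1.76-fold. Decr1 encodes the mitochondrial dienoyl-CoA reductase (chromosome 4, 15917240 to 15945507). Its level was 8.41, 9.96 and 8.35 CPM in Rpl22+/+ and 15.4, 17.2 and 14.5 CPM in Rpl22-/-. The groups were well apart (log2 difference 0.82 ± 0.15, SE; adjusted p = 0.00878, edgeR), although Decr1 remained the least abundant gene of the role per length. It missed the threshold without Rpl22+/+ replicate 3 (log2 difference 0.77, adjusted p = 0.0527) and with the GC correction (log2 difference 0.69, adjusted p = 0.122). Ech1, an isomerase for dienes and the most abundant of the role, had 72.3, 104 and 73.3 CPM against 82.4, 103 and 83.4 CPM. The highest library was in Rpl22+/+, and the log2 difference was 0.11 ± 0.19 (SE; adjusted p = 0.725, edgeR). The enoyl-CoA isomerase Eci1 had 12.5, 19.6 and 12.3 CPM in Rpl22+/+ and 20.7, 22.5 and 21.7 CPM in Rpl22-/-. Its groups did not overlap, but the gap was narrow beside Rpl22+/+ replicate 2, and its log2 difference of 0.55 missed the threshold (adjusted p = 0.102, edgeR) and passed in 7 of 18 alternatives. Eci2, its peroxisomal and mitochondrial relative, had a log2 difference of 0.02.

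In electron transfer 2 of 3 genes passed, with both subunits of the electron transfer flavoprotein higher and the enzyme that receives their electrons not. Etfb, the beta subunit (chromosome 7, 43093507 to 43107224), stood at 60.5, 103 and 62.0 CPM in Rpl22+/+ and at 167, 190 and 170 CPM in Rpl22-/-. Every Rpl22-/- library was above every Rpl22+/+ library, and Etfb rose 2.34-fold (log2 difference 1.22 ± 0.23, SE; adjusted p = 0.00976, edgeR). It passed in 18 of 18 alternatives, with log2 differences of 1.08 to 1.47. At 351 TPM in Rpl22-/- it was the most abundant of the 44 genes per length, as it was at 141 TPM in Rpl22+/+.

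Etfa, the alpha subunit (chromosome 9, 55361792 to 55419527), had nearly equal values in the Rpl22+/+ libraries, 47.1, 48.6 and 47.6 CPM, and 68.6, 79.7 and 70.3 CPM in Rpl22-/-. The groups were separate and Etfa rose 1.53-fold (log2 difference 0.61 ± 0.12, SE; adjusted p = 0.0113, edgeR). The call was lost without Rpl22+/+ replicate 1 (adjusted p = 0.0528) or replicate 3 (adjusted p = 0.0636) and with the GC correction (adjusted p = 0.110). The log2 differences in these fits were 0.59, 0.60 and 0.53. Etfdh, the membrane oxidoreductase that passes the electrons from the flavoprotein to ubiquinone, had 34.5, 31.8 and 32.6 CPM against 29.1, 30.9 and 29.2 CPM. Its estimate was on the other side of 0 (log2 difference -0.15 ± 0.12, SE; adjusted p = 0.404, edgeR). On TPM the ratio of Etfa to Etfdh was 2.66 ± 0.198 in Rpl22+/+ and 4.57 ± 0.200 in Rpl22-/-, and that of Etfb to Etfa 2.99 ± 0.886 and 4.50 ± 0.142 (SD, n = 3). The second ratio was 2.51 and 2.45 in Rpl22+/+ replicates 1 and 3 and 4.02 in replicate 2, which lay nearer to the Rpl22-/- libraries.

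The peroxisomal genes included the strongest rise among the 44 genes, that of Hsdl2, while the other 4 genes of the role did not pass. Hsdl2 encodes a short-chain dehydrogenase-like protein of peroxisomes with a sterol carrier domain, whose substrate is not well known (chromosome 4, 59581563 to 59618689). It stood at 29.5, 27.0 and 28.4 CPM in Rpl22+/+ and at 96.9, 98.1 and 82.9 CPM in Rpl22-/-. The spread within each genotype was small beside the gap between them, and Hsdl2 rose 3.27-fold (log2 difference 1.71 ± 0.13, SE; adjusted p = 0.000314, edgeR). It passed in 18 of 18 alternatives, with log2 differences of 1.59 to 1.83.

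Acaa1a, the peroxisomal thiolase and the most abundant gene of the role per length, had 73.0, 113 and 76.9 CPM against 107, 119 and 105 CPM. Rpl22+/+ replicate 2 lay inside the Rpl22-/- range, and the log2 difference was 0.34 ± 0.19 (SE; adjusted p = 0.256, edgeR). Without that library it was 0.52 and passed (adjusted p = 0.0151, edgeR), as it did in 4 of 18 alternatives in all. Acaa1a has a close copy, Acaa1b, so the split of reads between them is uncertain. Hsd17b4, the D-bifunctional protein, and Ehhadh, the L-bifunctional enzyme, both had estimates below 0 (log2 differences -0.51 and -0.46, adjusted p = 0.110 and 0.145, edgeR) without overlap of the groups. Hsd17b4 passed in 4 of 18 alternatives, with the replicate number as a block (adjusted p = 0.0385), with the block and a GC correction (adjusted p = 0.0134) and with limma on both TPM scales. Crot, the carnitine octanoyltransferase that exports shortened chains, had a log2 difference of 0.12. It was at 44.1 and 43.1 CPM in Rpl22+/+ replicates 1 and 3 but at 25.3 CPM in replicate 2, and without that library its log2 difference was -0.15. The summed level of the 5 genes was 219 ± 25.7 in Rpl22+/+ and 291 ± 17.4 in Rpl22-/- on CPM (SD, n = 3), without overlap.

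**Figure D3:**
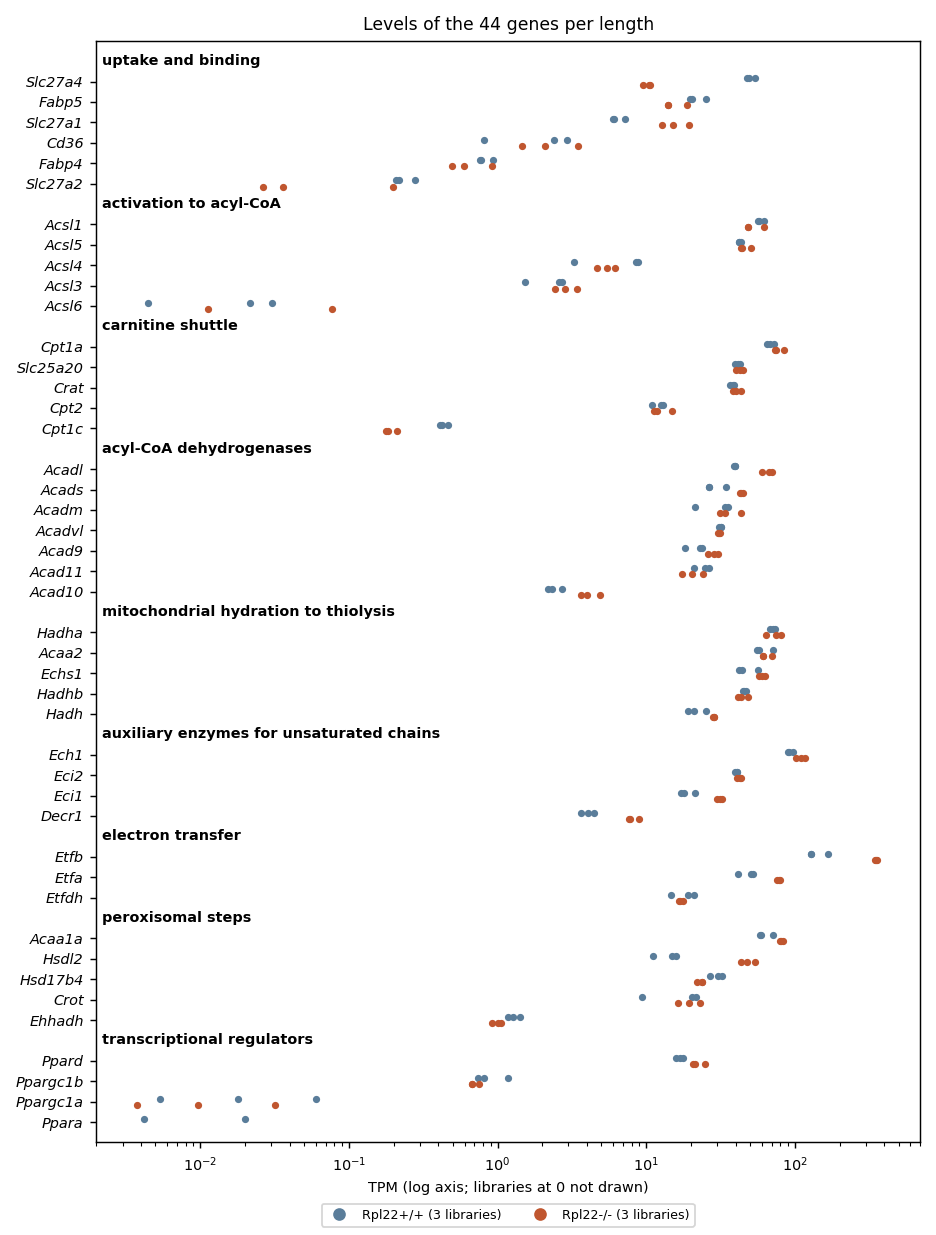
TPM of the 44 genes in each library (x axis, log scale), by role and in order of mean TPM within a role, with Rpl22+/+ above Rpl22-/- on each line. Etfb has the highest level in both genotypes, and Acsl6, Ppargc1a and Ppara lie below 0.1 TPM.

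Of the transcriptional regulators only Ppard was well expressed. Ppard stood at 34.6, 48.8 and 40.6 CPM in Rpl22+/+ and at 52.6, 50.4 and 48.1 CPM in Rpl22-/- (chromosome 17, 28451674 to 28520448). Rpl22+/+ replicate 2 reached the lower end of the Rpl22-/- range and the log2 difference was 0.28 ± 0.16 (SE; adjusted p = 0.237, edgeR), with a 95% interval of -0.09 to 0.66. Without that library it was 0.37 and passed (adjusted p = 0.0356, edgeR), and Ppard also passed with no composition factor and with limma on both TPM scales, in 4 of 18 alternatives in all. Ppargc1b, a coactivator of mitochondrial genes, had 2.64 ± 0.543 in Rpl22+/+ and 1.91 ± 0.0734 in Rpl22-/- on CPM (SD, n = 3; log2 difference -0.46, adjusted p = 0.191, edgeR). Ppara, the receptor that governs oxidation in liver, had 3 reads in all in Rpl22+/+ and 0 in Rpl22-/-, and the coactivator Ppargc1a had 6 and 9 reads. A count of 0 allows up to 3 reads, or 0.0283 to 0.0802 CPM in the Rpl22-/- libraries, so no difference in either was detectable at this depth.

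Seen by role, the sums shifted in opposite directions along the pathway. On CPM the log2 ratio of the summed level, Rpl22-/- over Rpl22+/+, was -1.40 for uptake and binding, -0.21 for activation, 0.01 for the carnitine shuttle, 0.19 for the dehydrogenases, -0.03 for hydration to thiolysis, 0.20 for the auxiliary enzymes, 0.84 for electron transfer, 0.40 for the peroxisomal steps and 0.25 for the regulators. The genotypes did not overlap for uptake and binding, activation, electron transfer and the peroxisomal steps. These sums were carried by few genes: Slc27a4 in the first, Etfb in electron transfer and Hsdl2 in the peroxisomal role. All 44 genes together summed to 2148 ± 368 CPM and 2237 ± 143 CPM (SD, n = 3), with overlap. On TPM, which has no composition correction, the same sum was 1285 ± 36.9 and 1661 ± 66.9, and the 20 general mitochondrial genes listed for comparison (import, chaperones, fusion and fission, genome maintenance) went from 1097 ± 61.3 to 1297 ± 13.2 TPM. Of those 20 genes 1, the chaperonin Hspd1, passed the test (log2 difference 0.46), against 27.6% of all genes, and their median was 0.21 against 0.07. The count was 8 of 20 without Rpl22+/+ replicate 2, where 40.0% of all genes passed. It was also 8 with no composition factor, where 5765 of all genes passed in place of 4594. No gene of the list passed in edgeR when any other single library was left out.

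**Figure D4:**
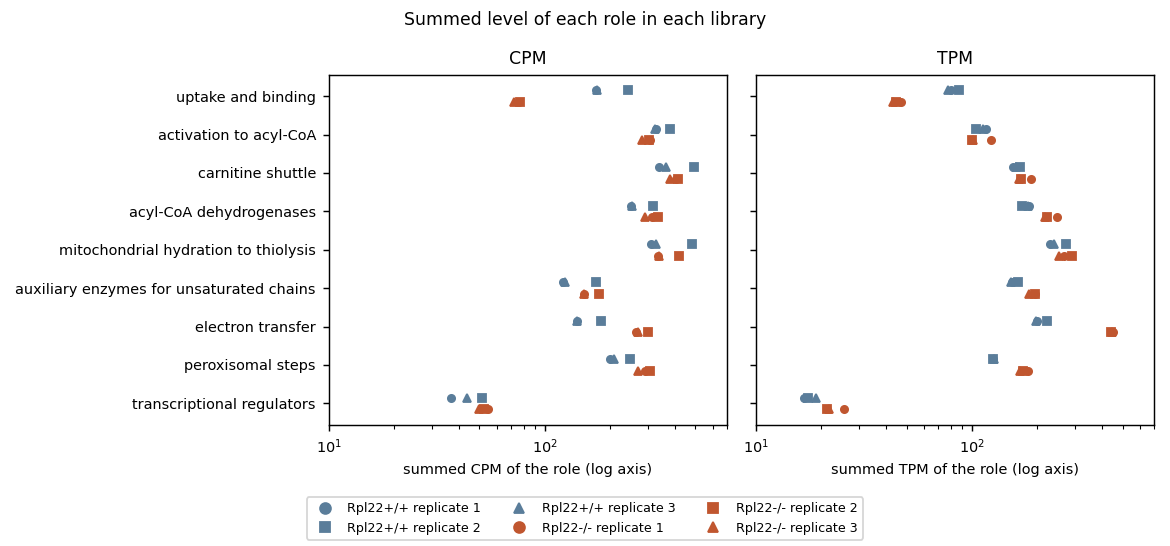
Summed level of the genes of each role in each library, on CPM (left) and TPM (right), both on log axes. Uptake and binding is lower and electron transfer and the peroxisomal steps are higher in all Rpl22-/- libraries on both scales, while activation is separate on CPM alone and the dehydrogenases, the auxiliary enzymes and the regulators on TPM alone.

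Position on the chromosome moved with part of these results. For genes averaging 50 counts or more, the median log2 difference was 0.43 for the 730 genes of chromosome 4 and 0.34 for the 654 genes of chromosome 9, and -0.08 to 0.08 on the other chromosomes. Rpl22 itself lies on chromosome 4. Of the 6 fatty acid genes that rose, Decr1 and Hsdl2 lie on chromosome 4 and Etfa on chromosome 9, and their log2 differences of 0.82, 1.71 and 0.61 stand beside these medians. Of the other tested genes there, Cpt2 on chromosome 4 had -0.01, and on chromosome 9 Acaa1a had 0.34, Slc25a20 -0.08 and Acad11 -0.33. The part of the chromosomes in the results was not tested. Slc27a1, Acadl and Etfb rose on chromosomes 8, 1 and 7, whose medians were 0.01, -0.08 and 0.05.

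At the level of transcripts, 157 of the 274 listed for the 44 genes were tested, and 5 of them passed, or 3.18% against 6.94% of all 57835 transcripts tested. They belonged to 4 genes. For Slc27a4 and Hsdl2 a single coding transcript (Slc27a4-201 and Hsdl2-201) held 99.7% and 99.9% of the gene's reads and carried the difference, with log2 differences of -2.49 and 1.66 (adjusted p = 0.00489 and 0.00475, edgeR). Slc27a1 was spread more widely. Its coding transcript Slc27a1-207 held 59.0% of the reads and stood at 8.38, 8.91 and 5.92 CPM in Rpl22+/+ and 16.8, 14.8 and 18.0 CPM in Rpl22-/-. The transcript Slc27a1-202, annotated as one that keeps an intron, stood at 2.41, 2.90 and 2.88 CPM against 11.6, 7.57 and 6.41 CPM. Both groups of values were apart, and the log2 differences were 1.03 and 1.57 (adjusted p = 0.0461 and 0.0247, edgeR). Of Acaa1a, the transcript Acaa1a-209, which keeps an intron and held 18.9% of the reads, was at 12.6, 9.92 and 13.5 CPM in Rpl22+/+ and at 34.6, 23.8 and 22.9 CPM in Rpl22-/-. It rose (log2 difference 1.10, adjusted p = 0.0297, edgeR), whereas the coding transcript Acaa1a-201, with 78.3% of the reads, had a log2 difference of 0.09 (adjusted p = 0.916). Poly(A) RNA was sequenced, Salmon divides reads among overlapping transcripts by a model, and the difference between the transcripts of a gene was not tested. Of 63 transcripts of these genes that keep an intron and were tested, 2 passed. Between 1 and 9 transcripts passed when a library was left out, 9 without Rpl22+/+ replicate 2 and 1 without Rpl22-/- replicate 3, with 2 in each of the other 4 fits.

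Of the 44 genes 36 had a promoter in the RefSeq table, in 41 windows of 300 bases. The hexamer AGGTCA, on either strand, was in 8 of the 41 windows, or 19.5%, against 16.3% of all 32851 windows, and a direct repeat of it with 1 base between, the element of PPAR and RXR pairs in its strictest spelling, was in none of the 41 and in 13 of all windows. The hexamer was in the windows of Cd36, Slc27a2, Acsl6, Cpt1a, Cpt1c, Acadm, Acadvl and Echs1. Of the genes named here Slc27a2 and Cpt1c fell and the others that were tested did not pass. For Cpt1a and Acadm, whose oxidation steps are usual examples of PPAR control, the hexamer (capitals, TGACCT when read on the other strand) and its neighbors are shown.
Cpt1a: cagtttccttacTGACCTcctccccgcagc
Acadm: gTGACCTtcgggctccggt
These lie at chr19:3323195-3323224 (plus strand) and chr3:153944875-153944893 (minus strand), 94 and 249 bases before the annotated starts. GC boxes were in 33 of the 41 windows (80.5%) against 35.7% of all windows, and CCAAT boxes in 20 (48.8%) against 37.4%. A match describes the letters of these windows and is not a bound site, and only windows this close to the start were searched.

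The 110 other genes of the pathway, in 5 lists, gave a similar share. Of 87 tested, 24 passed, or 27.6%, with 13 higher and 11 lower, and the median log2 difference was 0.07, the same as over all genes. The count changed with the libraries. It was 38 without Rpl22+/+ replicate 2, 9 without Rpl22+/+ replicate 3 and 11 without Rpl22-/- replicate 3. It was 12 without Rpl22+/+ replicate 1 or Rpl22-/- replicate 1. Over all genes the counts in these fits were, in this order, 6851, 2622, 2761, 3098 and 3040, against 4594 with all libraries. The counts of the 5 lists below with a library left out are to be read beside these.

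Among other genes of uptake, binding and activation, 5 of 11 tested passed, or 45.5% against 27.6% of all genes, 3 higher and 2 lower. Leaving out Rpl22+/+ replicate 3 or Rpl22-/- replicate 1 lowered the count to 3. Slc22a4, an organic cation transporter that also carries carnitine weakly, had 25.9, 22.4 and 25.4 CPM in Rpl22+/+ and 59.7, 51.8 and 50.4 CPM in Rpl22-/-. It rose without overlap (log2 difference 1.14 ± 0.14, SE; adjusted p = 0.00159, edgeR). Acss1, which makes acetyl-CoA from acetate in mitochondria, fell from 29.5, 33.8 and 27.3 CPM to 10.4, 13.5 and 14.2 CPM (log2 difference -1.25 ± 0.17, SE; adjusted p = 0.00286, edgeR). The brain binding protein Fabp7 was near the limit of detection, with 71 reads in all in Rpl22+/+ and 4 in Rpl22-/-, which per unit depth is a ratio of 19.7 with a 95% exact counting interval of 7.37 to 74.4. The muscle transferase Cpt1b (log2 difference 1.00) and the acyl-CoA binding protein Dbi (0.58) passed as well.

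Of 27 other mitochondrial genes of acyl-CoA metabolism 5 passed, or 18.5% against 27.6% of all genes. Each of the 5 was higher, and 13.7% of all genes passed as higher. Leaving out Rpl22+/+ replicate 3 left none passing by edgeR, and leaving out Rpl22+/+ replicate 1 or any single Rpl22-/- library left a count of 1. When Rpl22+/+ replicate 2 was left out 7 were higher and 3 lower. With the replicate block and the GC correction there were 6 higher and 5 lower. The 5 genes were Pccb of propionyl-CoA carboxylase, the thioesterase Acot2, the mitochondrial acetyl-CoA carboxylase Acacb, whose product malonyl-CoA inhibits Cpt1a, and Echdc1 and Echdc2. The log2 differences of the first 4 ran from 0.58 to 0.81. Echdc2 had 6 reads in all in Rpl22+/+ and 132 in Rpl22-/-, which per unit depth is a ratio of 19.8 with an exact counting interval of 8.86 to 54.9, and it missed the threshold without Rpl22+/+ replicate 3 (adjusted p = 0.0644, edgeR). It lies on chromosome 4.

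Of 26 other peroxisomal lipid genes tested 4 passed, or 15.4% against 27.6% of all genes. All 4 were lower, and 13.8% of all genes passed as lower. The estimates were divided, with 14 above 0, 12 below and a median of 0.07, the same as over all genes. Leaving out a library gave 2 to 4 lower, and 3 higher without Rpl22+/+ replicate 2. With no composition factor there were 5 higher and 3 lower, and with the replicate block and the GC correction 4 higher and 7 lower. Aldh3a2, the fatty aldehyde dehydrogenase, fell from 132, 160 and 135 CPM to 66.8, 65.7 and 61.4 CPM (log2 difference -1.14 ± 0.13, SE; adjusted p = 0.00151, edgeR), without overlap. The branched-chain oxidase Acox3, the very-long-chain transporter Abcd2 and the coenzyme A hydrolase Nudt7 had log2 differences of -0.67, -0.91 and -0.71 and passed.

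The partners and usual targets of PPAR receptors were divided, with 3 higher and 3 lower of 14 tested, or 42.9% against 27.6% of all genes. The count of 6 became 10 when Rpl22+/+ replicate 2 was left out and 3 when Rpl22+/+ replicate 1 or 3 or Rpl22-/- replicate 1 or 3 was. Angptl4, a secreted inhibitor of lipoprotein lipase and a usual target of PPARδ, rose from 3.34, 6.32 and 3.27 CPM to 17.6, 20.3 and 16.4 CPM (log2 difference 2.07 ± 0.30, SE; adjusted p = 0.00319, edgeR), without overlap. The thioesterase Acot1 and the coactivator Pprc1 rose by 0.81 and 0.75 on the log2 scale, and Acot1 has a close copy in Acot2, so reads may be split between them. Ncoa1, a coactivator of nuclear receptors, fell from 87.7, 74.7 and 93.7 CPM to 41.6, 35.2 and 40.8 CPM (log2 difference -1.12 ± 0.15, SE; adjusted p = 0.00217, edgeR). The corepressor Nrip1 and the PPAR partner Rxra also fell, with log2 differences of -1.03 and -0.98, but Nrip1 passed in 11 of 18 alternatives only. Pdk4, a target known from muscle, was among the 8 genes of the list with too few reads to test.

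Of the genes that release fatty acids from stored or lysosomal lipid 4 of 9 passed, or 44.4% against 27.6% of all genes. A single gene passed when replicate 3 of either genotype was left out, and 2 when replicate 1 of either was. Ces1d, a carboxylesterase with triglyceride hydrolase activity, was the largest difference in these 5 lists, at 45.8, 56.2 and 44.5 CPM in Rpl22+/+ and 0.588, 0.589 and 0.396 CPM in Rpl22-/-. The groups were far apart (log2 difference -6.55 ± 0.24, SE; adjusted p = 3.1e-05, edgeR), although the carboxylesterases are a family of close copies and reads may be split among them. Lysosomal lipase Lipa fell (log2 difference -0.70), and Ces2g and Abhd5, an activator of the lipase of lipid droplets, rose (0.94 and 0.40).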

How the data were processed

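Poly(A) RNA of 6 libraries was sequenced from stranded libraries. Per the submitters' processing notes reads were trimmed with Trimmomatic and quantified with Salmon against GRCm39, and versions are not given in the sources used here. The authors deposited estimated counts and TPM per transcript for each library. A further table the authors deposited holds positions, a base mean signal and their own comparison of the genotypes (log2 fold change, p-values), and only positions and the base mean were used from it. For 41 genes the mean computed here was 0.967 to 0.998 times that base mean, and for Slc27a2 and Ppargc1a 1.19 and 0.705 times.

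Estimated counts were summed to genes with GENCODE vM21 transcript identifiers (136036 of 276623 transcripts and at least 98.0% of reads matched) and rounded. Genes passing filterByExpr were tested by quasi-likelihood (edgeR 4.0.16, R 4.3.3) after TMM scaling, with genotype alone in the model and Benjamini-Hochberg adjustment over all genes, or over all transcripts. The 18 alternatives were other scalings, filters and tools (DESeq2 1.42.0, limma 3.58.1), a GC correction, the replicate number as a block and each library left out, and they are counted for single genes. Tests were tested on simulated data. SE are those implied by the F statistic. Groups follow the titles of the samples. The 44 genes, the lists and the tests were chosen with earlier results of these data known, and the GC and CCAAT boxes after seeing the data. Values are given for genes that passed at over 2-fold, Ppard, Cpt1a, the most abundant gene of each role and, in each other list, the 3 smallest p-values among genes that passed at over 2-fold, and other genes by counts, ranges or single differences. Library values of Decr1, Etfa, Etfdh, Eci1, Acads, Acsl4, Crot and Cd36 were added after they were seen. Intervals of reads cover counting error only.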

Additional observations from a re-analysis of the deposited data

How the results depend on the processing

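The labels number the replicates of both genotypes alike. Deviations from the group means correlated at 0.479, 0.634 and 0.0974 between libraries of one number. Between unlike numbers the correlations ran from -0.563 to 0.357. Only that of Rpl22+/+ replicate 3 with Rpl22-/- replicate 1 (0.357) was above 0, and it exceeded that of replicate 3 with its own number. It is not stated whether the numbers pair the libraries, so the main test has no block and the block is an alternative. With the replicate number as a block, 5631 genes passed in place of 4594, and 13 fatty acid genes in place of 9, 5 of them lower. The 4 gained were Fabp5, Hsd17b4, Acad10 and Eci1, with log2 differences of -0.54, -0.48, 0.67 and 0.58. Of member transcripts 3 passed. The block together with the GC correction gave 7062 genes, 15 fatty acid genes, 7 of them lower, and 40 other pathway genes. With no composition factor, 14 fatty acid genes passed, or 34.1% of the 41, 11 of them higher. In that fit 5765 of all genes passed, and the median of all genes was 0.19. On log2(TPM + 1) and log2(TPM + 0.1) the counts were again 14 and 11, and 5356 and 5422 of all genes passed, in this order. On log2(TPM + 1) 906 genes were over 2-fold higher and 699 lower.

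Leaving out each library in turn gave 2622 to 6851 genes passing, 5 to 18 fatty acid genes (3 to 14 higher), 9 to 38 other pathway genes and 1 to 9 member transcripts. Summed TPM in place of CPM moved the log2 ratio of uptake and binding to -0.87, of activation to -0.04, of the dehydrogenases to 0.36 and of electron transfer to 1.11. The causes of these changes were not tested.

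No fatty acid gene that passed changed sign in an alternative, and Slc27a1, Slc27a4, Etfb and Hsdl2 passed in all of them. Signs changed for 13 genes that had not passed. With no composition factor Cd36 became 0.06, Fabp4 0.12, Acsl5 0.03, Cpt2 0.14, Slc25a20 0.06, Crat 0.12, Hadhb 0.03 and Acaa2 0.09. On log2(TPM + 0.1) and log2(TPM + 1), in this order, Cd36 became 0.27 and 0.16, Acsl5 0.11 and 0.10, Cpt2 0.06 and 0.05, Crat 0.10 and 0.09, and Slc25a20 and Hadha 0.04 on both, and Acaa2 0.07 on both. With upper-quartile factors Cd36 became 0.01, Fabp4 and Cpt2 0.04 and Crat 0.03, and with no filter Fabp4 and Crat 0.01 and Cpt2 0.02. Cd36 was 0.07 with limma-voom and 0.06 with the block, and Cpt2 0.00 with the block. Eci2 became -0.01 with DESeq2 size factors, the DESeq2 test, the GC correction or a mean of at least 50 counts. Leaving out a library gave ranges of -0.40 to 0.25 for Cd36, -0.28 to 0.25 for Fabp4, -0.06 to 0.18 for Cpt1a, -0.11 to 0.13 for Cpt2, -0.18 to 0.04 for Slc25a20, -0.15 to 0.13 for Crat, -0.29 to 0.01 for Hadha, -0.25 to 0.00 for Hadhb, -0.19 to 0.17 for Acaa2, -0.01 to 0.26 for Ech1, -0.09 to 0.14 for Eci2 and -0.15 to 0.25 for Crot. Depth limits Slc27a2, Cpt1c, Fabp7 and Echdc2, and Acsl6, Ppara and Ppargc1a could not be tested.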
